A study of Homo sapiens with 20 samples.

Results

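The shared response is the set of genes whose recovery with IGF2BP3 moved the same way when HCT116 cells were treated with arsenite and when they were treated with tunicamycin (TM). It was read from 12 of the 20 libraries of the series, 3 each of PBS, arsenite, DMSO and TM at 4 h. Each stress was set against its own vehicle and the 2 effects were averaged. Of 7796 genes tested, 514 counted as shared: 244 were higher in both stresses and 270 were lower in both. A shared gene had a Benjamini-Hochberg adjusted p under 0.05 for the mean of the 2 effects in edgeR's quasi-likelihood test. In addition, both effects had the same sign and each had an unadjusted p under 0.05.

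All 12 libraries came from HCT116, a human colorectal carcinoma line, carrying the Tet-OsTIR1-PURO construct, and all were made with an anti-IGF2BP3 antibody. Every culture, the vehicle cultures included, had received 4-thiouridine at 100 µM for 15 h and was crosslinked with 365 nm light. Arsenite was given at 250 µM for 2 h, against PBS for 2 h. Tunicamycin was given at 5 µg/mL for 4 h, against DMSO for 4 h. The sample titles say arsenite and the treatment fields say sodium arsenate. The labels do not say that the 3 libraries of a group came from separate cultures, so p-values measure the spread between these libraries, which may be technical.

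PAR-CLIP recovers the RNA stretches that touch a protein: 4-thiouridine in the RNA crosslinks to it under light and is then read as a T-to-C conversion. IGF2BP3 is an RNA-binding protein of the oncofetal IGF2BP family that binds messenger RNAs and is known to affect their stability and translation. Tunicamycin blocks N-linked glycosylation, so that unfolded proteins build up in the endoplasmic reticulum (ER) and switch on the unfolded protein response through IRE1 and XBP1, ATF6, and PERK. Arsenite damages protein thiols and causes oxidative and proteotoxic stress. Both stresses are known to lead to phosphorylation of eIF2α, which favours translation of the transcription factor ATF4. A gene's count here depends on how much of its RNA the cell holds and on how much of it is bound, and less RNA and less binding cannot be told apart, since RNA abundance was not analysed here.

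Total counts ran from 130478 to 1568406 per library, the shallowest being PBS replicate 2. The library names place PBS and arsenite in 1 set, replicates 1 and 2 of DMSO and TM in another, and replicate 3 of both in a further one, so stress and set are separated only through each stress's own vehicle. The count table carries identifiers with no symbols. Symbols were given to 538 tested rows by matching their counts over 15 libraries to the reads of strand-specific clusters within RefSeq genes. Of the shared genes, 45 of 244 higher and 82 of 270 lower could be named in this way. The named genes are mostly well covered. The matching used the stressed libraries too, so genes that moved with stress may be easier to name, which was not tested. Groups did not overlap in either stress for 23.6% of the named genes, against 7.16% of all genes tested. Shares of named genes are therefore not rates over all genes. Of 12 epithelial markers, 7 had cluster reads, EPCAM, CDH1, KRT8 and KRT19 among them. Of 13 fibroblast and immune markers 1 did: COL1A1, PTPRC and LYZ had none, and CD68 had 15 reads in 1 arsenite library.

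For leading shared genes, the place with more cluster reads than any other of the gene was taken, a place being a run of overlapping clusters. Such a place held 42.1% of the cluster reads of HERPUD1 and 28.9% of those of HSP90B1. Each is printed as a window of 30 bases around the mode of its strongest cluster. Windows read 5′ to 3′ on the RNA strand in DNA letters, at GRCh38 positions. Capitals mark CAT followed by A, C or T, the core of a motif associated with IGF2BP proteins. The first 4 belong to genes that were higher in both stresses and the last 4 to genes that were lower.
HERPUD1, chr16:56940123-56940152, plus strand: tcgagattggttggattggacctattcagc
HSP90B1, chr12:103934238-103934267, plus strand: gtaattgctgacccaagaggaaacactcta
CHAC1, chr15:40956477-40956506, plus strand: ctgtccCATActgttaccCATAaaactatc
XBP1, chr22:28795417-28795446, minus strand: tcagcccctcagagaatgatcaccctgaat
LSM3, chr3:14198117-14198146, plus strand: aacaaagaatttgtcctgtatggaaaacgg
CCND1, chr11:69653158-69653187, plus strand: cgggaggaggtgtgaggaggaggctcccga
CMTM6, chr3:32481984-32482013, minus strand: aaattcagagCATAtCATCtgggctacctc
EIF4E, chr4:98880919-98880948, minus strand: aagcagagtggactgCATTtaaatttgatt

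The whole HERPUD1 place, of which the window is a part, held 6, 0 and 0 reads in the PBS libraries and 48, 75 and 128 in the arsenite libraries. In DMSO it held 0, 12 and 7 reads, and in TM 55, 130 and 182. The LSM3 place went the other way, with 47, 17 and 53 reads in PBS against 7, 6 and 18 in arsenite. These reads are not scaled to depth. The CHAC1 window lies 21 bases before the gene's RefSeq 3′ end and the HERPUD1 window 4727 bases before it. Exon borders were not used here, so the windows are not assigned to exons or introns. In the strongest window of each gene, the marked letters were present in 7 of 45 shared higher genes (15.6%), 22 of 82 shared lower genes (26.8%) and 1635 of 4590 genes overall (35.6%). The named genes that were not shared gave 25.1%. These shares are a description and were not tested.

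Of the 7796 genes, 2139 (27.4%) had an adjusted p under 0.05 in the mean contrast, 1073 higher and 1066 lower. The shared genes were a minority of these, 3.13% of all genes tested for the higher and 3.46% for the lower direction. A further 1074 moved the same way with an unadjusted p under 0.05 in arsenite alone, 170 did so in TM alone, and 366 had effects of opposite sign. Arsenite had the larger effect in 209 of the 244 shared higher genes and in 239 of the 270 lower ones. The median log2 effect of the shared higher genes was 0.83 in arsenite and 0.48 in TM, and that of the lower genes was -0.51 and -0.31. Over all genes tested the median mean effect was -0.008. An increase of at least 2-fold in both stresses was seen for 15 genes, and a decrease of that size in both for none of the 270.

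**Figure D1:**
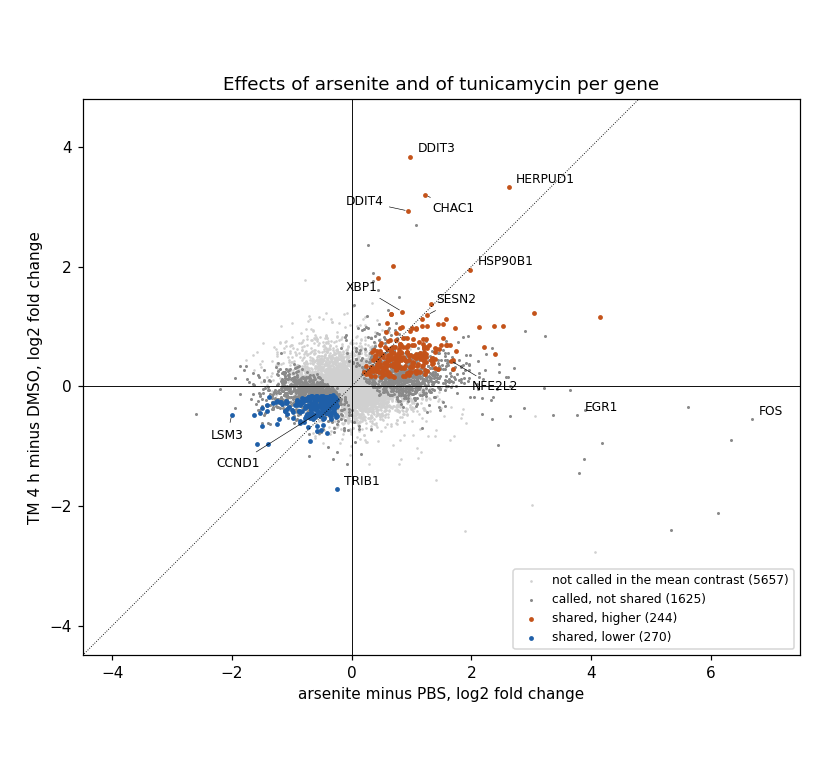
Log2 fold change in arsenite against PBS (x axis) and in TM 4 h against DMSO (y axis), 1 point per gene tested; the dotted line marks equal effects. The 244 shared higher genes (orange) spread to 2.63 and 3.33 for HERPUD1, the 270 shared lower genes (blue) stay closer to 0, and FOS and EGR1 rose with arsenite and not with TM.

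Groups did not overlap in either stress for 154 of the shared higher genes and 180 of the lower genes. Among all genes tested 558 (7.16%) were free of overlap in this way, and the rule used the same contrasts, so nothing is read from these counts. The named genes with the largest weaker effect are described below, 11 higher and 12 lower. These were drawn only from shared genes without overlap, so separate groups in them were fixed by the choice and are no added result. HERPUD1, HSP90B1, CHAC1 and SESN2 held ranks 1 to 4 among all 144 eligible higher genes. On the lower side, the first named gene, ELK3, held rank 15 of 178, so most of the leading lower genes are without a name here. The leading genes without a symbol were ENSG00000172071_14 (log2 1.17 in arsenite and 1.13 in TM) and ENSG00000285976_2 (2.38 and 1.01) among the higher, and ENSG00000158467_16 (-0.70 and -0.91) and ENSG00000154217_15 (-0.73 and -0.68) among the lower. The shared call of ENSG00000285976_2 was lost without DMSO replicate 2, that of ENSG00000158467_16 without PBS replicate 1, PBS replicate 3 or arsenite replicate 2, and that of ENSG00000154217_15 without PBS replicate 1 or without replicate 3 of DMSO and TM.

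HERPUD1, a membrane protein of ER-associated degradation, had the largest weaker effect of the eligible genes. It was recovered at 41.4, 55.2 and 56.1 CPM (counts scaled to library size) in PBS and at 372, 297 and 278 in arsenite. In DMSO it lay at 49.4, 37.4 and 37.8 CPM and in TM at 308, 564 and 324. The groups did not overlap in either stress, and TM replicate 2 was the highest library. The change was 6.18-fold in arsenite and 10.0-fold in TM, with a log2 mean effect of 2.98 ± 0.14 (SE, n = 3 per group) and an adjusted p of 1.5e-28 in edgeR's quasi-likelihood test. After 1 h of TM the 3 libraries were still at 41.6, 22.2 and 30.7 CPM.

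HSP90B1, the ER member of the HSP90 chaperones (GRP94), rose by a like factor in both stresses. Its values were 107, 110 and 142.7 CPM in PBS against 478, 517 and 465 in arsenite. They were 142.7, 97.2 and 114 in DMSO against 382, 514 and 406 in TM. All 6 stressed libraries lay above all 6 vehicle libraries. The rise was 3.96-fold in arsenite and 3.87-fold in TM, and the difference between the log2 effects was 0.03 ± 0.20 (SE, edgeR adjusted p 0.94).

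XBP1, the transcription factor activated by IRE1, stood at 141.2, 103 and 128 CPM in PBS and 252, 213 and 236 in arsenite. The DMSO libraries ranged from 93.3 to 148 CPM, with a mean of 127 ± 29.8 (SD, n = 3), and TM gave 319, 363 and 297. The rise was 1.79-fold and 2.38-fold (edgeR adjusted p 4.1e-14), free of overlap in both stresses as the choice of genes required. KDELR1, a receptor that returns ER proteins from the Golgi, rose 1.74-fold from a mean of 270 ± 2.67 CPM (SD, n = 3) in PBS and 1.63-fold from 178 ± 25.9 CPM in DMSO. DNAJB9, an ER co-chaperone of BiP, rose 1.61-fold in arsenite, from 65.3 ± 12.1 to 96.7 ± 12.1 CPM. In TM it rose 4.03-fold, and the arsenite effect minus the TM effect was -1.32 ± 0.29 on the log2 scale (edgeR adjusted p 0.00049).

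The shared higher genes of the ATF4 and CHOP arm were CHAC1, SESN2, DDIT3, SLC3A2, DDIT4, SLC38A2 and TRIB3. CHAC1, a glutathione-degrading enzyme, was recovered at 21.9, 31.6 and 28 CPM in PBS and at 73, 66.7 and 51.8 in arsenite. In DMSO it stood at 8.23, 16 and 11.3 CPM and in TM at 76.4, 151 and 112. The groups were separate in both stresses, but the rise was 2.35-fold in arsenite and 9.17-fold in TM, a log2 difference of -1.97 ± 0.48 (edgeR adjusted p 0.0016). The gene is thinly covered in the shallower libraries.

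SESN2, a stress-induced inhibitor of mTORC1, rose by a like factor in both stresses. It was at 168, 197 and 184 CPM in PBS and at 450, 415 and 428 in arsenite. In DMSO it was at 198, 208 and 200 CPM and in TM at 393, 547 and 438. The lowest stressed library was above every vehicle library, and the rise was 2.40-fold and 2.28-fold (log2 mean effect 1.23 ± 0.08, edgeR adjusted p 1.3e-20). DDIT4, another mTORC1 inhibitor, rose 1.92-fold in arsenite and 7.62-fold in TM, from 40.6 ± 8.89 to 297 ± 38.5 CPM in TM. Its arsenite effect minus its TM effect was -1.99 ± 0.30 on the log2 scale (edgeR adjusted p 4.9e-07).

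SLC3A2, the heavy chain of heteromeric amino acid transporters, had 102, 126 and 96.9 CPM in PBS against 206, 195 and 241 in arsenite. In DMSO it had 76.9, 89.7 and 64.4 CPM against 133, 153 and 152 in TM. The 2 rises, 2.11-fold and 1.95-fold, differed by 0.11 ± 0.23 on the log2 scale (edgeR adjusted p 0.79). SLC38A2, a neutral amino acid transporter, rose from a mean of 1620 to 3180 CPM in arsenite and from 1380 to 2000 in TM. TRIB3, a pseudokinase that inhibits ATF4 and CHOP, rose by 0.45 in arsenite and 1.81 in TM on the log2 scale. Its shared call was lost without PBS replicate 1 or arsenite replicate 3, with DESeq2 and with robust moderation.

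DDIT3, which encodes CHOP, met the rule with overlap. It was at 9.73, 23.7 and 12.8 CPM in PBS and at 27.7, 23.3 and 26.4 in arsenite. In DMSO it held 16.5, 7.48 and 9.66 CPM against 133, 174 and 126 in TM. TM separated the groups by 14.2-fold, while PBS replicate 2, the shallowest library, lay within the arsenite range. The arsenite effect had an unadjusted p of 0.029, and the shared call was lost without PBS replicate 1, without PBS replicate 3, without arsenite replicate 3 and with DESeq2.

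VDAC2, a channel of the outer mitochondrial membrane, rose 2.01-fold and 1.61-fold. TFG, a protein of ER exit sites, had 136, 118 and 199 CPM in PBS and 704, 760 and 740 in arsenite. In DMSO it had 129, 128 and 131 CPM and in TM 196, 248 and 179. The groups were separate in both stresses, but the rise was 4.61-fold in arsenite and 1.57-fold in TM. The log2 difference was 1.55 ± 0.19 (edgeR adjusted p 5.9e-10). NFE2L2, which encodes the antioxidant transcription factor NRF2, rose 3.15-fold in arsenite, from 420 ± 20.1 to 1310 ± 59.7 CPM, and 1.35-fold in TM. HSP90AB1, FTL, RPL4, GAPDH, RTL8C and the calmodulin genes have near-identical copies or repeats. How reads of such copies were counted is not stated, so their counts are uncertain.

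**Figure D2:**
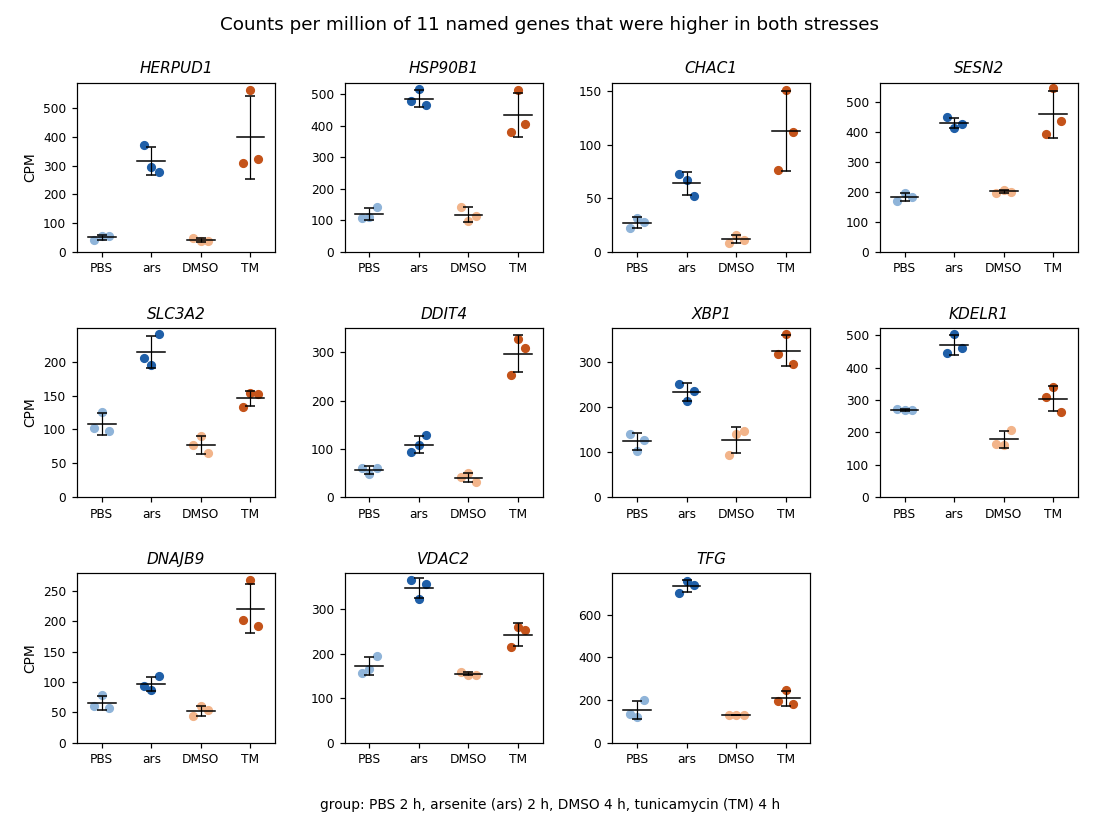
CPM of 11 named genes that were higher in both stresses, 1 point per library, with the group mean (line) and SD (bar); every y axis starts at 0. In each panel the stressed libraries lie above their own vehicle, which the choice of genes required. They lie at like heights for HSP90B1 and SESN2, higher in TM for CHAC1, DDIT4 and DNAJB9, and higher in arsenite for TFG.

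The IgG libraries, 1 per condition with far fewer counts, held 1 HERPUD1 count in PBS, 1 in arsenite, 0 in DMSO and 7 in TM. For SESN2 they held 1, 3, 1 and 10 counts and for HSP90B1 3, 1, 2 and 10. The IgG library of TM was therefore also the highest of the 4 for these genes. The IgG library of TM held 11542 counts in all. As a share of that total, these genes were not lower than in the anti-IGF2BP3 libraries of TM. The same held for CHAC1, XBP1, TFG, DDIT4, KDELR1, VDAC2, SLC3A2 and DDIT3, with 3 to 6 counts each in the IgG library of TM. DNAJB9, with 2 counts there, was lower. Enrichment over IgG in TM is therefore not shown for the genes that were not lower, and the IgG counts are few. With 1 library per condition and totals of 7864 to 17503 counts, this was not tested.

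Among the shared lower genes, CCND1, cyclin D1, which drives entry into the cell cycle and is a known IGF2BP target, was recovered at 3240, 2720 and 2780 CPM in PBS and 2090, 1970 and 1940 in arsenite. In DMSO it stood at 3220, 3300 and 3730 CPM and in TM at 2980, 2170 and 2460. The groups were separate in both stresses, with TM replicate 1 nearest to its vehicle. Recovery fell to 0.68 of PBS and 0.735 of DMSO (log2 mean effect -0.50 ± 0.05, edgeR adjusted p 5.7e-12). The 2 effects differed by -0.11 ± 0.11 (adjusted p 0.51).

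ELK3, an ETS transcription factor, fell to 0.702 and 0.718 of its vehicles, from 575 ± 97.9 to 394 ± 47.4 CPM in arsenite and from 511 ± 68.3 to 375 ± 13.3 CPM in TM. TGOLN2, a protein that cycles through the trans-Golgi network, had 837, 931 and 803 CPM in PBS and 606, 640 and 584 in arsenite. In DMSO it had 738, 775 and 835 CPM and in TM 602, 501 and 552. Neither pair of groups overlapped, and recovery stood at 0.722 of PBS and 0.695 of DMSO. TSC22D1, a leucine zipper transcription regulator, fell to 0.746 and 0.75 of vehicle, and RTL8C, a retrotransposon-derived gene, to 0.611 and 0.729.

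A further group fell much more in arsenite than in TM. LSM3, a subunit of the LSM rings of splicing and mRNA decay, had 139, 158 and 166 CPM in PBS and 42.8, 38.4 and 35.8 in arsenite. In DMSO it had 231, 172 and 186 CPM and in TM 126, 147 and 134. The groups were separate, with recovery at 0.249 of PBS and 0.72 of DMSO, a log2 difference of -1.53 ± 0.24 (edgeR adjusted p 1.2e-06). DYNLT1, a dynein light chain, stood at 0.324 and 0.72 of vehicle, and BANF1, which links chromatin to the nuclear envelope, at 0.344 and 0.732. S100A16, a calcium-binding protein, stood at 0.374 and 0.748.

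CAV1, the main protein of caveolae, had 1870, 1590 and 1450 CPM in PBS and 891, 890 and 906 in arsenite. In DMSO it had 1680, 1880 and 2060 CPM and in TM 1610, 1280 and 1390. The arsenite libraries were tightly grouped, and the drop to 0.545 of PBS was larger than the drop to 0.752 of DMSO (edgeR adjusted p of the difference 0.0017). CAV2, its partner in caveolae, fell by 0.34 and 0.44 on the log2 scale. CALM2, a calmodulin gene, fell to 0.463 and 0.755 of vehicle, and CMTM6, which stabilises PD-L1 at the membrane, to 0.504 and 0.756. EIF4E, the cap-binding translation factor, fell to 0.474 of PBS, from 780 ± 30.5 to 372 ± 22.7 CPM, and to 0.768 of DMSO.

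**Figure D3:**
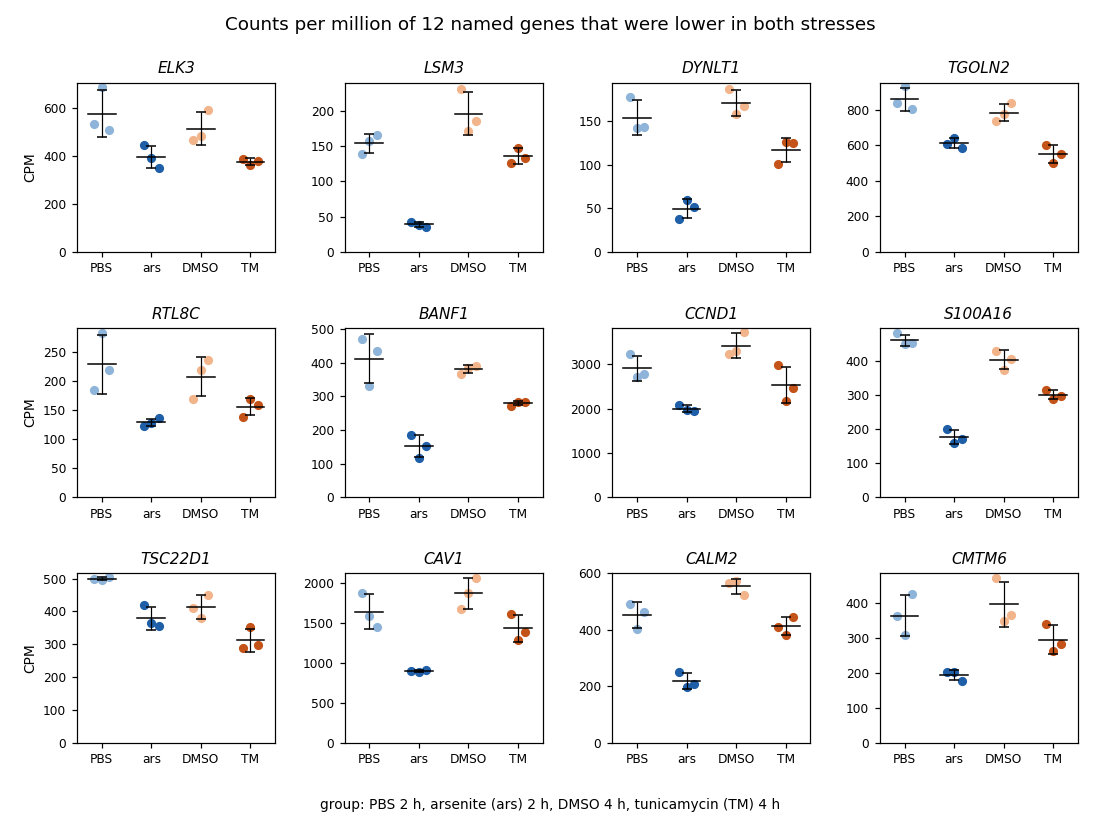
CPM of the 12 named genes that were lower in both stresses, 1 point per library, with the group mean (line) and SD (bar); every y axis starts at 0. In each panel the stressed libraries lie below their own vehicle, which the choice of genes required. LSM3, DYNLT1, BANF1 and S100A16 dropped further in arsenite, and CCND1, ELK3 and TGOLN2 dropped alike.

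Named genes next to the thresholds were as follows. HSPA5, which encodes the ER chaperone BiP, missed it on the arsenite side with an unadjusted p of 0.0635 (log2 0.27 in arsenite and 2.36 in TM), while ADNP2 entered with 0.0478 (0.20 and 0.24). On the TM side CERS2 entered with 0.0473 (0.48 and 0.15) and IFITM3 missed with 0.0564 (0.48 and 0.37). Among lower genes DUSP14 entered with an arsenite p of 0.0498 (-0.33 and -0.27) and PSMD12 missed with 0.0524 (-0.18 and -0.29). LIN7C entered with a TM p of 0.0446 (-0.68 and -0.16).

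The difference between the 2 stress effects had an adjusted p under 0.05 for 1427 of 7796 genes (18.3%). Among the shared genes it passed for 120 of 514, and arsenite had the larger effect in 114 of these. The exceptions in which TM was larger were CHAC1, DDIT3, DDIT4, DNAJB9 and TRIB3 among the higher genes and TRIB1 among the lower ones. TRIB1, a pseudokinase that works with the COP1 ubiquitin ligase, stood at 0.842 of PBS and 0.303 of DMSO. DMSO replicate 3 was its highest library at 2040 CPM, and the other DMSO libraries held 1140 and 1110. Its arsenite effect had an unadjusted p of 0.041, and the shared call was lost in 7 of the 22 alternative fits, among them those without PBS replicate 1, PBS replicate 3, arsenite replicate 1 or arsenite replicate 2.

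Gene lists were described over the 538 named genes, of which 113 (21.0%) were called higher and 235 (43.7%) lower in the mean contrast. Only part of each list had a name, 16 of 46 ATF4 and CHOP targets and 10 of 47 XBP1 and ATF6 targets. Naming used the same counts, so the named members are not an independent sample of their list. Of these named genes, 8.36% were shared and higher and 15.2% shared and lower, and their median mean effect was -0.13. Of 16 named ATF4 and CHOP targets, 11 were called higher and 1 lower, 7 were shared and higher, and the list's median mean effect was 0.72 (0.28 in arsenite and 0.87 in TM). STC2 and PSAT1 were called higher through TM (log2 1.35 and 0.98) and had effects of 0.03 and 0.11 in arsenite. ATF3 was called through arsenite (2.43, against -0.04 in TM). ATF4 itself was called lower, at -1.47 in arsenite and 0.27 in TM. MTHFD2, TNFRSF10B, SLC7A1 and SLC7A5 were not called in the mean contrast.

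Of 10 named XBP1 and ATF6 targets, 6 were called higher and 2 lower, and 5 were shared and higher: HERPUD1, HSP90B1, XBP1, DNAJB9 and SEC61A1. The list's median was 0.67 (0.31 in arsenite and 0.91 in TM), and over 17 members measured by cluster reads it was 0.28 (0.19 and 0.40). SEC61A1, a subunit of the ER translocon, rose by 0.34 and 0.26. Other ER folding genes did not move together: CANX and P4HB were called lower, with -0.62 and -1.0 in arsenite and 0.15 and 0.14 in TM, and CALR had -0.54 and 0.57. Both lists were drawn up with earlier results of these data known and are not independent evidence of their direction.

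Among the heat shock genes, HSP90AB1, a cytosolic HSP90 chaperone, was shared and higher (1.27-fold and 1.49-fold). BAG3, HSP90AA1 and DNAJB1 were called higher through arsenite, with 2.65, 1.14 and 3.65 there and -0.50, 0.13 and -0.07 in TM. Of 22 immediate early genes, 15 were called higher and 2 lower, but none was shared and higher. FOS stood at 15.1 ± 7.54 CPM in PBS and 1800 ± 136 in arsenite, against 34.6 ± 15.9 in DMSO and 25.2 ± 1.95 in TM. EGR2 and NR4A1 had log2 effects of 6.34 and 3.79 in arsenite and -0.90 and -1.45 in TM. NR4A1 was at 98.8, 113 and 394 CPM in DMSO and at 112, 91.1 and 71.9 in TM, and DMSO replicate 3 stood apart from the other 5 libraries. Without that library the TM effects were -0.35 for NR4A1, -0.29 for EGR2 and 0.08 for FOS, and the arsenite effects were 3.79, 6.34 and 6.69. The list's median was 1.39 in arsenite and -0.48 in TM, and without DMSO replicate 3 the latter was -0.28. Its median mean effect of 0.58 describes neither stress.

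All 4 named genes of the NRF2 list, which includes NFE2L2 itself, were called higher. NFE2L2 and FTL, the ferritin light chain, were shared. SQSTM1 and TXN had 0.44 and 0.48 in TM but 0.16 and 0.18 in arsenite (unadjusted p 0.17 and 0.30 in edgeR's quasi-likelihood test). By cluster reads 2 of 12 genes of this list, again NFE2L2 and FTL, were called higher. The median was -0.02 in arsenite and 0.33 in TM. TXNRD1 stood at -0.56, FTH1 at -0.58 and PRDX1 at -1.09 in arsenite, none of them called. FTL rose 1.37-fold in arsenite and 1.18-fold in TM. Of 7 stress granule protein genes 4 were called higher. PRRC2C, which was shared, rose 1.63-fold and 1.12-fold. The shared call of PRRC2C was lost without TM replicate 1, TM replicate 2 or DMSO replicate 3. Of 14 translation factors EIF2S2, the β subunit of eIF2, was shared and higher (1.37-fold and 1.35-fold), EIF4E was shared and lower, and 8 were not called. Of 23 ribosomal protein genes, RPL4 was shared and higher and 16 were not called. The list's median was -0.59 in arsenite and 0.44 in TM. RPL39 had -1.76 and 0.33, and RPS12 had -1.19 and 0.56.

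Of 8 known IGF2BP targets with a name, CD44 was shared and higher (1.53-fold and 1.16-fold), and CCND1 and HMGA1 were shared and lower. HMGA1, an architectural chromatin protein, fell from 5800 ± 476 to 4040 ± 280 CPM in arsenite and from 4710 ± 83.4 to 4160 ± 551 CPM in TM. Its shared call was lost without TM replicate 3, the lowest of the TM libraries at 3530 CPM, and that of CD44 without DMSO replicate 2. IGF2BP3 itself has no named row. Its clusters held 29, 0 and 23 reads in PBS, 0, 33 and 56 in arsenite, 11, 104 and 176 in DMSO and 17, 24 and 158 in TM, too few and too uneven for a comparison. No p53 target, actin, tubulin, SR splicing factor or respiratory chain gene with a named row was shared in the count fit. By cluster reads ATP5F1A (0.88 in arsenite and 0.90 in TM, edgeR adjusted p 0.0088) and ATP5F1B (1.21 and 1.06, adjusted p 0.035), subunits of ATP synthase, were shared and higher. They were 2 of 10 respiratory chain genes in that fit, and 2 others were called lower. These were ATP5MJ (-2.41 and -0.24, edgeR adjusted p 0.018) and COX8A (-2.05 and 0.11, adjusted p 0.0072). In the count fit 1 of 9 respiratory chain genes was called higher and 3 lower.

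**Figure D4:**
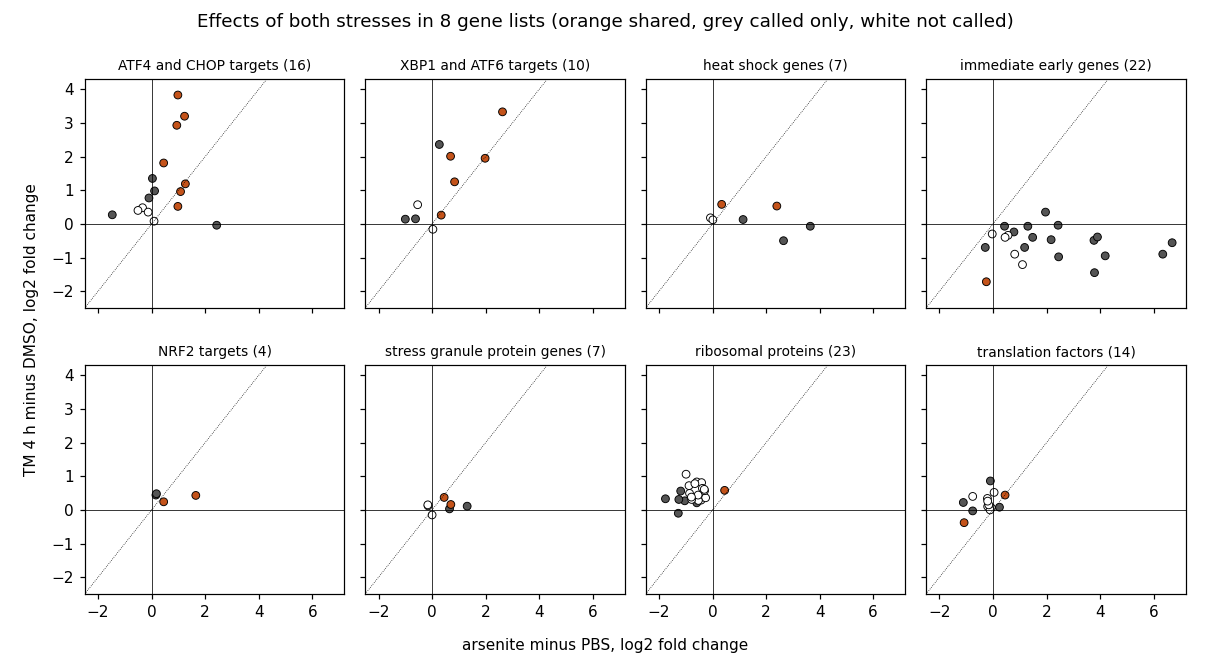
Log2 effect of arsenite (x axis) and of TM 4 h (y axis) for the named members of 8 gene lists, the number of genes in brackets; orange points are shared, grey points called in the mean contrast only, white points not called. ATF4 and CHOP targets and XBP1 and ATF6 targets reach up and to the right, most immediate early genes lie to the right and below 0, and most ribosomal protein genes lie to the upper left, RPL4 and RPL23A being exceptions.

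A fit on cluster reads summed per RefSeq gene took in genes whose table row has no name. It tested 1921 genes, of which 215 (11.2%) were called higher and 73 (3.8%) lower. Clusters are called per library, so a low gene can drop out of a shallow library. The median log2 effect over all genes in this fit was 0.17 in arsenite and 0.003 in TM. In this fit 8 of 18 ATF4 and CHOP targets and 7 of 17 XBP1 and ATF6 targets were called higher, and P4HB of the latter was called lower. Of 5 cytosolic aminoacyl-tRNA synthetases, which charge tRNAs with amino acids and are known ATF4 targets, 2 were called higher, with a list median of 0.41 in arsenite and 0.40 in TM. The 125 shared named genes measured in both readouts had the same sign in both, which the matching of the 2 readouts partly fixes.

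Promoters were searched for 5 motifs in the 250 bases before the RefSeq start site, on both strands, in 38 shared higher, 70 shared lower and 15768 protein-coding genes with an entry. The ER stress response element, CCAAT and CCACG held 9 bases apart, was present in HSP90B1 and XBP1, 2 of the 38 (5.26%), in 0 of the 70, in 4 of 338 named genes that were not shared (1.18%), and in 0.133% of all genes. The letters TGATGNAA, the core of the element bound by ATF4 with C/EBP partners, were found in CHAC1 and HERPUD1 (5.26%), in M6PR of the lower genes (1.43%) in 1.48% of the named genes that were not shared and in 3.16% of all. Both are shown because they lie before the starts of 4 of the leading shared genes, with the motif in capitals, on the gene's strand at GRCh38.p14 positions from RefSeq.
HSP90B1, chr12:103930196-103930254, plus strand: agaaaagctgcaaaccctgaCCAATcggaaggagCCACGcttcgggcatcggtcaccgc
XBP1, chr22:28800583-28800641, minus strand: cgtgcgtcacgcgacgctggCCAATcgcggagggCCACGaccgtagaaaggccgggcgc
HERPUD1, chr16:56931946-56931993, plus strand: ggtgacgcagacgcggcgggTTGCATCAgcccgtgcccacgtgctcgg
CHAC1, chr15:40953242-40953289, plus strand: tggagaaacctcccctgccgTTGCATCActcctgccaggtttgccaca

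In HERPUD1 and CHAC1 the match is on the opposite strand and reads TTGCATCA here. The letters TGACGTGG, a core of the element bound by XBP1, were found in HNRNPK (2.63% of the higher genes, 0.869% of all). TGANTCA, bound by AP-1, was found in 7.89% of the higher, 2.86% of the lower and 7.1% of all genes. TGACNNNGC, the core of the antioxidant response element, was found in 21.1%, 17.1% and 14.7%. In SLC3A2 and HNRNPK a match of the last motif overlaps one of the others. These are matches of letters in a window and show no binding.

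The share of T-to-C conversions among all T positions read in clusters did not itself enter the rule. It was pooled over all clusters of a set, so each gene weighed by its reads in a library. The rule chose genes whose counts moved with stress, so these weights can shift, and the share is not fully independent of the rule. In the 45 shared higher genes it was 8.68% ± 0.237 (SD, n = 3) in PBS and 9.41% ± 0.127 in arsenite, 8.29% ± 0.112 in DMSO and 8.87% ± 0.64 in TM. The mean of the 2 differences was 0.656 percentage points, with p = 0.015 in a two-sided exact permutation test within each stress, where the smallest possible p is 0.005. In the 82 shared lower genes it was 0.316 points (exact permutation p = 0.09). A rise was also seen outside the shared genes. It was 0.532 points in the 411 other named genes (exact permutation p = 0.025) and 0.51 points in 7719 further genes (p = 0.035).

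Between the shared higher and the shared lower genes the rise differed by 0.34 points (exact permutation p = 0.005, 0.0225 adjusted over 9 tests of this family). Whether shifted weights contribute to this difference was not tested. With the same adjustment the exact permutation p of the rise was 0.045 in the shared higher genes, in the other named genes and in the further genes. In the third library set the order was turned: TM replicate 3 had 8.19% and DMSO replicate 3 8.28% in the shared higher genes, whereas TM replicates 1 and 2 had 9.47% and 8.95% against 8.4% and 8.18%. Without replicate 3 of both DMSO and TM the rise was 0.822 points (exact permutation p = 0.0167, the smallest possible with the libraries left). The pair left out was the one with the turned order, so no support is drawn from this p. TM replicate 3 was also the deepest of the 12 libraries, at 1568406 counts. In arsenite the share in these genes was 9.54%, 9.41% and 9.29% at 414033, 623476 and 1098488 counts. Within PBS and within TM it was likewise lower at greater depth, while DMSO did not keep this order. A link with depth was not tested.

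**Figure D5:**
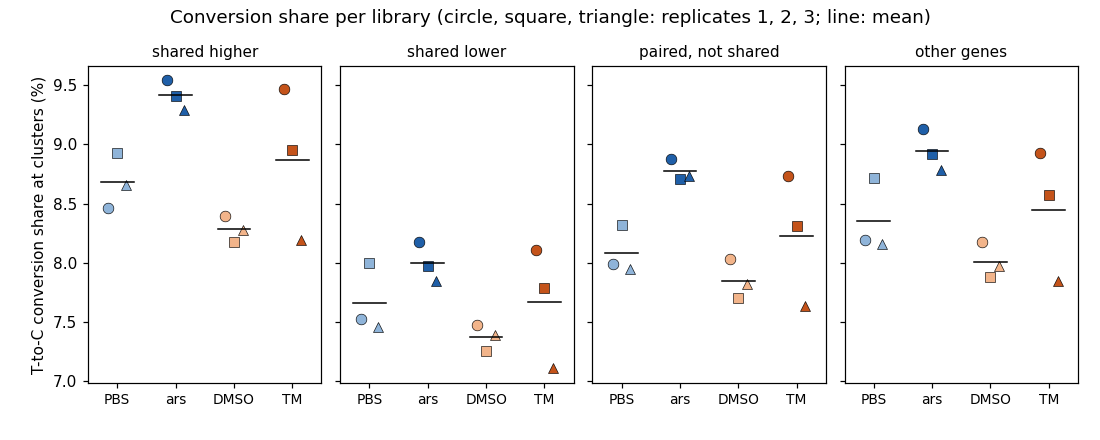
T-to-C conversion share at clusters (y axis, percent, not starting at 0) in 4 sets of genes ("paired" means named by symbol, "ars" arsenite), 1 point per library, with replicates 1, 2 and 3 as circle, square and triangle and the mean as a line. In the shared higher genes all arsenite libraries lie above all PBS libraries, 2 of 3 TM libraries lie above DMSO, and TM replicate 3 lies low in every set.

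The position of the cluster reads was also compared, a readout chosen after the data were seen and pooled over a set in the same way. The share of reads within 1000 bases of the RefSeq 3′ end fell in the shared lower genes from 37.6% ± 1.02 in PBS to 35% ± 0.932 in arsenite and from 37.1% ± 1.67 in DMSO to 35.4% ± 0.531 in TM. The mean difference was -2.13 points (exact permutation p = 0.005, 0.0225 adjusted over 9). In the shared higher genes the difference was -10.6 points in arsenite and -0.0606 in TM, a mean of -5.33 (exact permutation p = 0.05, 0.0563 adjusted). The 7719 further genes had -9.43 and -1.21 points (exact permutation p = 0.02, 0.045 adjusted). The 411 other named genes had -7.3 and -0.354 points, a mean of -3.83 (exact permutation p = 0.035, 0.045 adjusted). The mean drop in the shared lower genes was thus the smallest of the 4 sets. Their drop was the smallest of the 4 in arsenite (-2.56 points) but the largest in TM (-1.71 points). The differences between sets were not tested.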

How the data were processed

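Gene counts were deposited by the authors as whole numbers per gene and library, raw per the file headers and the values, and 0 columns were left unassigned. Per the submitters' processing notes, bcl2fastq 2.20.0.422, UMI-tools 1.1.1, Trimmomatic 0.30, Bowtie 0.12.7 and featureCounts 2.0.1 were used with GRCh38.p13 (hg38). The cluster caller is not given in the sources used here. The authors' cluster lists, called per library, give read counts and conversion counts. More than 1 RNase concentration is stated without saying which library received which.

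The fit over the 12 libraries used edgeR 4.0.16 (filterByExpr, TMM factors, two-sided quasi-likelihood test; R 4.3.3) and was tested on simulated data. A gene can pass the filter through 1 group alone. CPM values use these factors, and the SE is the log2 effect divided by the square root of F. DESeq2 1.42.0 was an alternative. Replicate numbers did not pair the samples (same-number correlations -0.105 to 0.016). Replicate pairs differed by more than counting noise (chi-square per gene 1.16 to 1.72).

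No table pairs the identifiers with symbols. In 514 of 514 clusters inside RefSeq promoter windows the bases matched, so cluster reads were summed per RefSeq gene. Rows were named where 1 gene fitted their counts in 15 libraries better than any other, in both directions. The margin asked for was over 10 in a robust misfit score, which is not in log-likelihood units. Of 538 pairs 537 kept their order along the genome. This check was seen while the matching model and the margin were chosen, so it is no independent error rate.

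Members, lists and tests were chosen with earlier results of these data known. Named genes are, among shared genes without overlap whose counts averaged 20 or more, the first 12 per direction with a name, up to 4 per list, the 3 largest stress differences per direction, 3 with opposite signs, and genes next to the thresholds. A few named genes are not reported here. Others named were chosen after their values were seen. Conversion shares were compared by exact permutation. Alternatives were other scaling, filters, tests, samples and rules.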

Additional observations from a re-analysis of the deposited data

Results flagged for a closer look

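The 2 stress effects differed (edgeR's quasi-likelihood test of the difference, adjusted p under 0.05) for these named shared genes, given as the log2 arsenite effect minus the log2 TM effect. A larger rise in TM was seen for DDIT3 (-2.85), DDIT4 (-1.99), CHAC1 (-1.97) and DNAJB9 (-1.32). A larger rise in arsenite was seen for TFG (1.55), NFE2L2 (1.22), PRRC2C (0.54) and CD44 (0.40). A larger drop in arsenite was seen for LSM3 (-1.53), DYNLT1 (-1.15), BANF1 (-1.09), S100A16 (-1.0), CALM2 (-0.71), EIF4E (-0.70), CMTM6 (-0.59), CAV1 (-0.47) and HMGA1 (-0.34). TRIB1 (1.48) dropped further in TM.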

How the results depend on the processing

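Counts of shared genes are given here as a percent of the 244 higher and 270 lower genes reported. DESeq2 called 1354 genes in place of 2139 and gave 58.2% as many shared higher and 53% as many shared lower genes, 285 in all. Keeping only genes with an average count of 50 or more gave 65.2% for the lower genes. Asking for an adjusted p under 0.05 in each stress gave 31.1% and 30.4%, and dropping the p asked of each stress 368% and 324%, as these rules are built to do. None of the 514 genes changed the sign of its mean effect in any alternative fit in which it was tested. Leaving out 1 library gave 1608 to 2085 called genes, 78.3% to 106% of the shared higher and 75.6% to 100% of the shared lower genes, and 156 of the 514 were shared in all 12 such fits. The replicate block gave 1939 called genes, 93% and 89.3%, and kept 453 of the 514. Without replicate 3 of both DMSO and TM, 299 were kept.

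The conversion rise ranged from 0.507 to 0.825 points in the shared higher genes and from 0.206 to 0.455 in the lower ones when 1 library was left out. In the lower genes the exact permutation p passed 0.05 without PBS replicate 2 (0.401 points) or TM replicate 3 (0.455 points), and the cause was not tested. Of 1050 alternative values for single named genes 1033 kept their side of the adjusted p of 0.05 in the mean contrast. The 17 that lost it were for RPS12 and, in 1 case, NR4A1, neither of which was shared. Shared calls were less stable than these values. Of 23 fits, the reported one included, TRIB1 was shared in 16, DDIT3 in 18 and TRIB3 in 19. Low counts in PBS replicate 2 limit what can be seen of weakly recovered genes such as DDIT3 and CHAC1, neither of which was tested when an average count of 50 was asked for.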
